A study of Mus musculus with 5 samples.

Results

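The 10 genes described here are markers of pericytes and vascular smooth muscle cells, the mural cells that wrap blood vessels: Rgs5, Pdgfrb, Cspg4, Mcam, Kcnj8, Abcc9, Acta2, Tagln, Myh11 and Cnn1. They were chosen by name, with earlier results of these data known, and all 10 were present among the 22683 genes of the deposited expression table. Total RNA had been sequenced from satellite cells, the stem cells of skeletal muscle, which were labelled quiescent and sorted from 2 groups of mice. The groups were wild type (2 libraries) and mdx (3 libraries), the latter carrying a mutation in the dystrophin gene and serving as a model of Duchenne muscular dystrophy. Each library came from between 10000 and 20000 sorted cells. Age, sex, strain, muscle, the sorting gate and the number of animals behind a library are details not given in the sources used here, so the p-values speak only of the spread among these samples, part or all of which may be technical.

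Pericytes sit on capillaries within the vessel's basement membrane, while smooth muscle cells form the contractile coat of larger vessels. Both are recruited by platelet-derived growth factor from endothelial cells, which acts on the receptor encoded by Pdgfrb. Smooth muscle contractile genes such as Acta2, Tagln, Myh11 and Cnn1 are classic targets of serum response factor and its myocardin-family partners, which act at a DNA element called the CArG box. Neither cell type is a satellite cell, but both share the vessel niche in which satellite cells lie, and some of these genes are also transcribed outside mural cells. In libraries made from many cells, fewer cells of a type and less RNA per cell cannot be told apart.

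The stretches of 250 bases just upstream of the annotated start were read from the RefSeq promoter table (GRCm38.p6, the mm10 build), which held 7 of the 10 genes. Shown are 3 genes that rose together in mdx, Rgs5, Cspg4 and Mcam, and the contractile gene Acta2, which did not pass the test. Each runs 5′ to 3′ on the gene's strand and ends at the base before the RefSeq start, from which motif distances are also counted. That start can differ from the gene coordinates of the expression table given further below. It lies inside those coordinates for Cspg4 and Mcam and upstream of them for Acta2, so part of the Cspg4 and Mcam stretches falls within the gene as listed there.
Rgs5, chromosome 1, 169655251 to 169655500, plus strand: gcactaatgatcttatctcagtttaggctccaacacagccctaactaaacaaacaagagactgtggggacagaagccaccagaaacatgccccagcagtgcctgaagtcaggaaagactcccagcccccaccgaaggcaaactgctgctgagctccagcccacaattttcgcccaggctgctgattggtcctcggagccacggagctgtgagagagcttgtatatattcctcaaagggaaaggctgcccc
Cspg4, chromosome 9, 56864854 to 56865103, plus strand: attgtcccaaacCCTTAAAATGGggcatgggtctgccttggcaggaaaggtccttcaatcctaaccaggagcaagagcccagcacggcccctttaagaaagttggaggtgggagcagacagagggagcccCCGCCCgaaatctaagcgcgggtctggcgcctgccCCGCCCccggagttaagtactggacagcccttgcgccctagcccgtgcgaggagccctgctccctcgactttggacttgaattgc
Mcam, chromosome 9, 44134408 to 44134657, plus strand: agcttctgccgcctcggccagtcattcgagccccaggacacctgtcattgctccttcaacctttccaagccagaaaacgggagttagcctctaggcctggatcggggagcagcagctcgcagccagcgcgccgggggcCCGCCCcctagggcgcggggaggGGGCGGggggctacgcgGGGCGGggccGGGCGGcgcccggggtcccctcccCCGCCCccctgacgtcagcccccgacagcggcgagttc
Acta2, chromosome 19, 34255374 to 34255623, minus strand: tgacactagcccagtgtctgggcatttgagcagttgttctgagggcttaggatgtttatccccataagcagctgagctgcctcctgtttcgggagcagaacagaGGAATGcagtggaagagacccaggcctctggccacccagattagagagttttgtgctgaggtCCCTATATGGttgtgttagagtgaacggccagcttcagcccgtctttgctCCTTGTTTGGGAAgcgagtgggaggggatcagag

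Capitals in these stretches mark matches on either strand to the GC box (GGGCGG), the MCAT element (CATTCC, the site of TEAD factors), the core letters of the RBPJ site of Notch signalling (TGGGAA), the CArG box, or a CArG box with at most 1 other letter. The Mcam stretch held 5 GC boxes and the Cspg4 stretch 2, a motif present in 32.7% of the 32851 upstream stretches in the table. Acta2 held 2 CArG boxes with 1 other letter, CCCTATATGG and CCTTGTTTGG, starting 84 and 34 bases before the start. The second overlaps the TGGGAA match at 27 bases, and an MCAT match lay at 146 bases. Cspg4 held 2 near matches to the CArG box that overlap each other, and such near matches occurred in 18.6% of all stretches. The RBPJ core letters occurred in 21.6% of all stretches and the MCAT element in 12.6%. The exact CArG box, found in 1.47% of all stretches, was in none of the 7. Rgs5 and Cnn1 held no match to any of these motifs in this window.

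Expression values are the deposited normalized counts, in which a gene's reads are scaled by the size factor of its library and rounded. The libraries summed to between 12473348 and 16825045 normalized counts, or an estimated 17.1 M and 19.6 M reads in wild type and 12.8 M to 14.8 M in mdx. Of the 18199 genes with enough signal to be tested by limma (at least 10 in 2 or more libraries), 24.9% were called at an adjusted p under 0.05, 14.6% as higher and 10.3% as lower in mdx. Higher genes made up 58.7% of these calls, and 47.2% after trends with transcript length and GC content were removed library by library. The median log2 fold change of all tested genes was 0.13, and 0.32 when libraries were rescaled to equal totals. The most abundant single gene took 3.40% to 3.52% of a wild-type library and 6.44% to 22.4% of an mdx library. Xist, transcribed from the inactive X chromosome of females, gave normalized counts of 30235 and 30176 for wild type against 0, 0 and 12 for mdx 1, 2 and 3, so genotype and sex cannot be told apart here. Dmd, the dystrophin gene, gave 11826 and 9266 for wild type against 4642, 4116 and 3700 for mdx. The mdx allele is a point mutation, so the level of the RNA does not by itself check the label. Pax7, the satellite cell transcription factor, gave 9103 and 7644 for wild type against 12767, 9751 and 14989 for mdx. It did not pass the test (limma adjusted p = 0.0698), and 6 other satellite cell markers fell, as given further below.

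Of the 10 markers, all passed the filter on low values, 5 rose in mdx (Rgs5, Pdgfrb, Cspg4, Mcam and Myh11), 1 fell (Tagln) and 4 did not pass the test. The background for these counts is 14.6% of genes higher and 10.3% lower. Their median log2 fold change was 1.94, against 0.13 over all tested genes. For 8 of the 10 the wild-type and mdx values did not overlap, 6 higher and 2 lower in mdx, against 52% of all tested genes (28.2% higher and 23.8% lower). Of the 6 markers used mainly for pericytes, Rgs5, Pdgfrb, Cspg4 and Mcam rose and the channel genes Kcnj8 and Abcc9 did not pass. Of the 4 contractile genes, 1 rose, 1 fell and 2 did not pass.

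**Figure D1:**
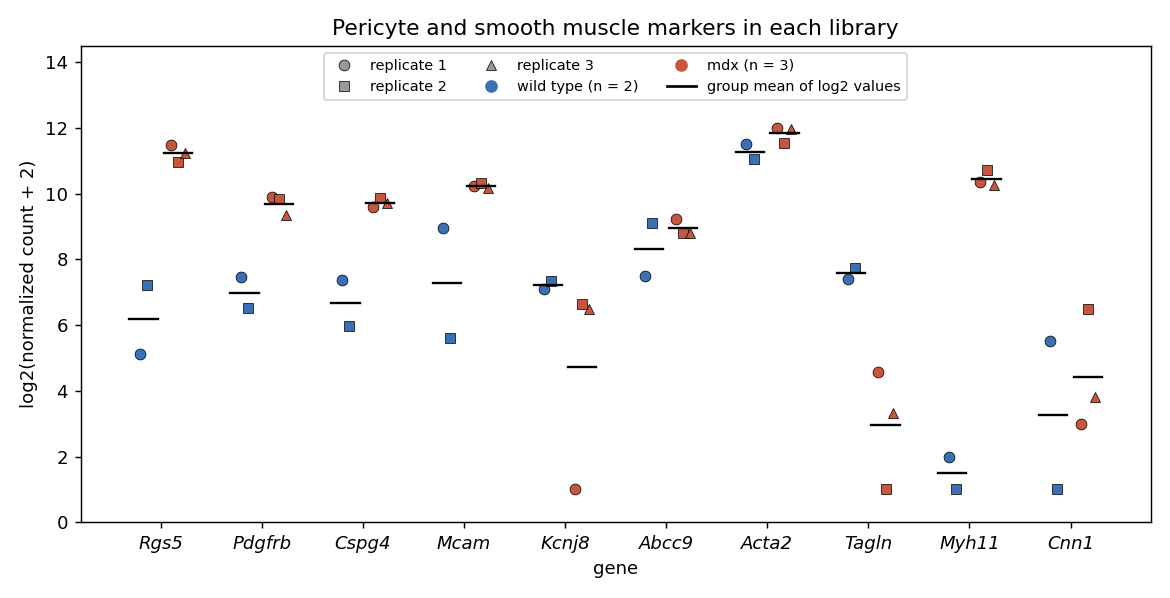
Each point is the log2(normalized count + 2) (vertical axis) of a marker gene (horizontal axis) in 1 library, blue for the 2 wild-type and red for the 3 mdx libraries, with the shape giving the replicate and bars the group means. Rgs5, Pdgfrb, Cspg4, Mcam and Myh11 lie higher in every mdx library, Tagln lies lower, and Abcc9 and Cnn1 overlap.

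Rgs5, which encodes a regulator that shortens G-protein signalling and is among the most used pericyte markers, lies on chromosome 1, 169655501 to 169695813 (mm10). Wild type 1 and 2 gave 33 and 148 normalized counts, against 2862, 2017 and 2399 for mdx 1, 2 and 3. Every mdx library was far above both wild-type libraries, which themselves differed 4.48-fold. The rise was 33.2-fold, on the log2 scale 5.05 (SE 0.53, 95% interval 3.84 to 6.26, limma adjusted p = 0.000274). Without wild type 1 the log2 fold change was 4.0, and without wild type 2 it was 6.10.

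Pdgfrb, the receptor through which mural cells are recruited, lies on chromosome 18, 61045150 to 61085061. It reached 950, 918 and 654 normalized counts in mdx 1, 2 and 3, from 175 and 89 in wild type. The groups stood apart, and the 3 mdx libraries lay within 1.45-fold of each other. The gene rose 6.55-fold (log2 2.71, SE 0.40, 95% interval 1.82 to 3.61, limma adjusted p = 0.00148). After removal of the length and GC trend it was 1.88 (limma adjusted p = 0.0126).

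Cspg4, encoding the NG2 proteoglycan on the pericyte surface (chromosome 9, 56865033 to 56899870), counted 766, 929 and 844 in the mdx libraries after normalization, against 164 and 61 for wild type. Again all mdx libraries were above both wild-type libraries. The gene rose 8.27-fold (log2 fold change 3.05, SE 0.45, 95% interval 2.04 to 4.06, limma adjusted p = 0.0015). Its longest coding transcript, at 8121 bases, was the longest among the 10 markers, and its log2 fold change was 1.58 once the length and GC trend was removed (limma adjusted p = 0.0399). Without wild type 1 or 2 it was 3.75 or 2.35.

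Mcam, encoding the adhesion molecule CD146 of pericytes, smooth muscle and endothelium (chromosome 9, 44134562 to 44142727), was the least even of the rising genes in wild type. Wild type 1 and 2 gave 495 and 47 normalized counts, a 10.5-fold difference, whereas mdx 1, 2 and 3 had 1198, 1270 and 1143, within 1.11-fold. The mdx libraries were all above the higher wild-type library. The rise of 7.72-fold (log2 2.95, SE 0.77, 95% interval 1.20 to 4.69, limma adjusted p = 0.0234) became a log2 fold change of 4.62 without wild type 1 and 1.28 without wild type 2. The call ended without mdx 1, 2 or 3, where the log2 fold change stayed at 2.95, 2.91 and 2.98 (limma adjusted p = 0.128, 0.123 and 0.127). It also ended, at 2.95, with no filter on low values and without the variance trend and robust fitting (limma adjusted p = 0.0875 and 0.134).

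Kcnj8 and Abcc9 encode the pore and the regulatory subunit of the ATP-sensitive potassium channel of vascular cells, and the genes are neighbours on chromosome 6, 16247 bases apart. Kcnj8 (142564837 to 142571614) was at 0, 99 and 88 normalized counts in mdx 1, 2 and 3, against 134 and 162 for wild type. All mdx libraries were lower, but the zero in mdx 1 set the spread, and the log2 fold change of −2.51 did not pass (SE 1.6, 95% interval −6.13 to 1.12, limma adjusted p = 0.281). Without mdx 1 it was −0.65. Abcc9 (142587862 to 142702315) was at 602, 441 and 449 in mdx, against 180 and 546 for wild type, so the groups overlapped (log2 fold change 0.65, 95% interval −0.42 to 1.71, limma adjusted p = 0.34). Its direction depended on the wild-type libraries, with log2 fold changes of −0.15 without wild type 1 and 1.44 without wild type 2. The subunit genes of the related channel of other tissues, Kcnj11 and Abcc8, stood at 0 in wild type 1 and 2, reached at most 14 in mdx and were not tested. Neither channel gene passed the test.

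Among the contractile genes, Myh11 changed most. It encodes the smooth muscle myosin heavy chain, the marker held most specific to mature smooth muscle, and lies on chromosome 16, 14194527 to 14291408. Its mdx libraries held 1305, 1688 and 1220 normalized counts, against 2 and 0 for wild type. Wild type was at or near 0, an estimated 2 reads in both libraries together, so a fold is poorly defined. The ratio of the means was 1404, with a 95% Clopper-Pearson interval of 447 to 13338 that covers counting error only. The log2 fold change on the log2(normalized count + 2) scale was 8.94 (SE 0.60, limma adjusted p = 2.72e-05), the 87th smallest p of all tested genes, and 7.0 to 9.65 over the alternatives tried.

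Tagln, encoding the actin-binding protein transgelin (SM22), an early marker of the smooth muscle lineage, moved the other way. It lies on chromosome 9, 45929619 to 45936058, and was at 22, 0 and 8 normalized counts in mdx 1, 2 and 3, against 168 and 213 for wild type. Even the highest mdx library, at 22, was below wild type. The gene fell 24.4-fold (log2 −4.61, SE 1.27, 95% interval −7.48 to −1.74, limma adjusted p = 0.0286). The call ended without wild type 2, mdx 2 or mdx 3, where the log2 fold change was −4.44, −3.63 and −4.79 (limma adjusted p = 0.095, 0.0536 and 0.0896). It was −5.42 without mdx 1, and −3.47 with a pseudocount of 10. It also ended, at −4.61, without the variance trend and robust fitting of limma (adjusted p = 0.0611). An antisense gene, Gm48529, covers 3627 bases of the Tagln locus, and Pcsk7 overlaps its end by 108 bases. Gm48529 itself gave 48 and 110 normalized counts for wild type, against 49, 62 and 31 for mdx. Whether reads were counted by strand is not given here, so the share of reads from the antisense partner was not tested.

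Acta2, encoding smooth muscle alpha-actin (chromosome 19, 34241090 to 34255336), was abundant in both genotypes, at 4115, 2958 and 4015 normalized counts in mdx 1, 2 and 3 against 2925 and 2129 for wild type. The lowest mdx library exceeded the higher wild-type library by little. The log2 fold change of 0.55 did not pass (SE 0.22, 95% interval 0.05 to 1.06, limma adjusted p = 0.103), but it did after quantile normalization (0.73, limma adjusted p = 0.0438). Without wild type 1 the log2 fold change was 0.78. Of the 50-base stretches of its longest coding transcript, 0.352% also occurred in transcripts of other genes, among them Actg1. Shared stretches made up 0.698% of Abcc9 and 0.4% of Myh11, the latter with Myh9 and Myh10, and none were found for the remaining 7 genes.

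Cnn1, encoding calponin, a late smooth muscle marker that restrains actomyosin (chromosome 9, 22099216 to 22109630), was low and uneven. Values were 6, 88 and 12 normalized counts in mdx 1, 2 and 3, against 44 and 0 for wild type. The groups overlapped, and the log2 fold change of 1.17 had a 95% interval of −2.68 to 5.02 (limma adjusted p = 0.651). Leaving out wild type 1 or 2 moved it to 3.43 or −1.09.

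**Figure D2:**
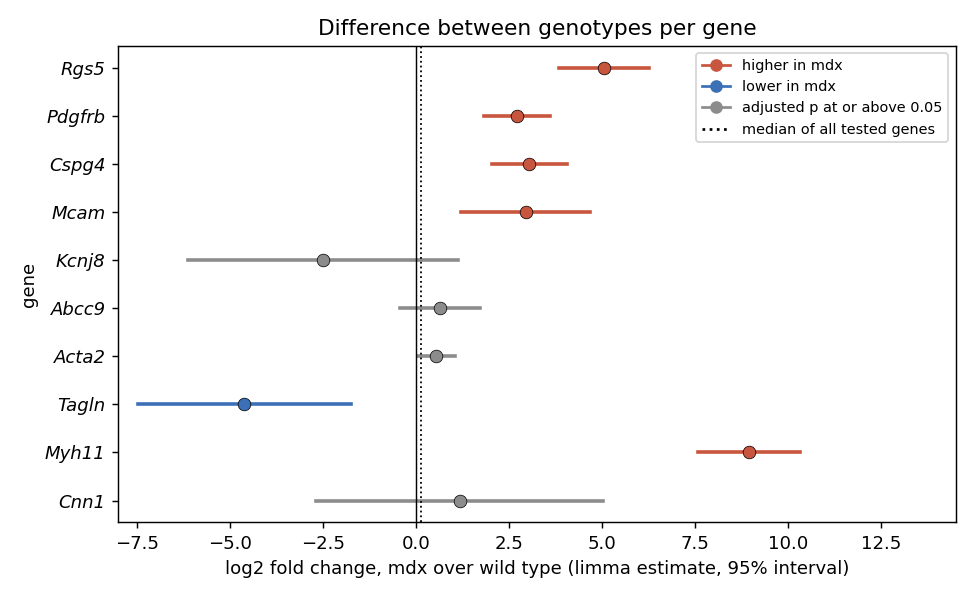
Points are limma log2 fold changes, mdx over wild type (horizontal axis), for each marker gene (vertical axis), with bars for 95% intervals, red and blue for calls higher and lower and grey for genes that did not pass. Myh11 at 8.94 and Rgs5 at 5.05 lie farthest to the right and Tagln at −4.61 to the left, with the dotted line at the all-gene median of 0.13.

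Levels of different genes were compared per kilobase of the longest coding transcript. In wild type, Acta2 stood apart at 1242 ± 277 normalized counts per kb (SD, n = 2), followed by Tagln at 119 ± 19.9. From Tagln down to Myh11 (0.153 ± 0.216), the ranges of each neighbouring pair overlapped, so this order holds for the extremes only. In mdx, Acta2 again led at 1816 ± 315 per kb (SD, n = 3), then came Rgs5 (592 ± 103), Mcam (403 ± 21.3), Myh11 (214 ± 38.1), Pdgfrb (155 ± 30.0), Cspg4 (104 ± 10.0) and Abcc9 (66.3 ± 12.1). The ranges of neighbours in that series did not overlap. Kcnj8, Cnn1 and Tagln ended the mdx order at 24.5 ± 21.3, 14.8 ± 19.2 and 6.27 ± 6.98, with overlapping ranges. Tagln thus ranked 2 per kb in wild type and 10 in mdx, and Myh11 ranked 10 in wild type and 4 in mdx.

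The make-up of the summed marker signal per kb showed the same shift. The sum of the 10 genes was 1864 and 1392 normalized counts per kb in wild type and 3687, 3047 and 3456 in mdx. Acta2 made up 77.1% and 75.2% of it in wild type and 54.8%, 47.7% and 57.1% in mdx. Rgs5 went from 0.432% and 2.6% to 19.0%, 16.2% and 16.9%, and Myh11 from 0.0164% and 0% to 5.40%, 8.46% and 5.39%. Mcam held 8.88% and 1.13% in wild type and 10.9%, 13.9% and 11.1% in mdx. Tagln went from 5.65% and 9.59% to 0.374%, 0% and 0.145%.

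**Figure D3:**
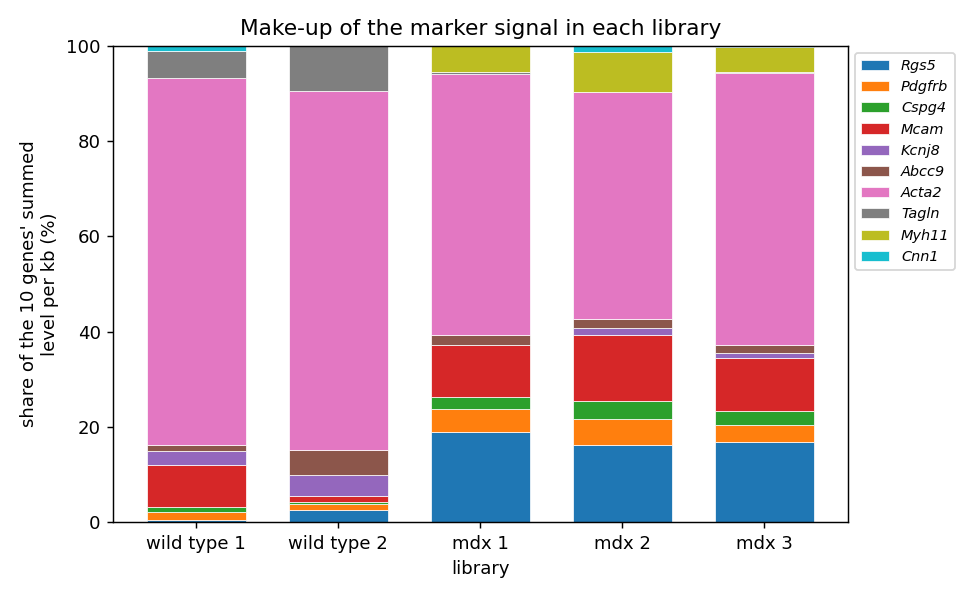
Stacked bars give, for each library (horizontal axis), the percentage of the 10 genes' summed level per kb (vertical axis) held by each gene. Acta2 holds over 75% in both wild-type libraries and 47.7% to 57.1% in mdx, where Rgs5 (16.2% to 19.0%), Mcam (10.9% to 13.9%) and Myh11 (5.39% to 8.46%) hold the next largest shares.

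Of 17 further mural cell markers in the table, all tested, 6 rose, 1 fell and 10 did not pass, with a median log2 fold change of 2.42. The count of rises was 3 without mdx 3. The count of falls was 3 (Vtn, Notch3 and Heyl) and that of rises 5 after removal of the length and GC trend. Ebf1, a transcription factor gene of pericytes and other mesenchymal and B cells, was at 675, 645 and 398 in mdx and listed at 0 in both wild-type libraries. Gucy1a3, encoding a subunit of the nitric oxide receptor, had 0 and 5 against 407, 328 and 374. Anpep, encoding the aminopeptidase CD13, had 12 and 0 against 465, 585 and 478. Vtn, encoding vitronectin, fell to 407, 444 and 716, from 1445 and 847 (limma adjusted p = 0.0449), a call lost in 9 of 14 alternatives, among them without wild type 1 or any mdx library. Notch3 and Heyl, a Notch receptor and a Notch target gene used as mural markers, were abundant in both genotypes. Notch3, named after its values were seen, gave 10021 and 7611 for wild type against 12607, 10608 and 17437 for mdx. Heyl, likewise, gave 6891 and 6659 against 5647, 5845 and 7051, and neither gene passed (limma adjusted p = 0.0808 and 0.57). Their direction depended on the processing. Notch3, at a log2 fold change of 0.60, was called in 4 of 14 alternatives, as higher after quantile normalization (1.35), with no filter on low values and without wild type 1, and as lower after removal of the length and GC trend (−0.90, limma adjusted p = 0.0162). Heyl, at −0.14, was called lower after that removal (−0.85, limma adjusted p = 0.0046) and stood at 0.35, not called, after quantile normalization.

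Of 23 other contractile and cytoskeletal genes of smooth muscle tested, 11 rose, 2 fell and 10 did not pass, with a median log2 fold change of 1.70. The rises were 47.8% of the list, against 14.6% of all tested genes, and the falls 8.7%, against 10.3%. Neither fall was called without the variance trend and robust fitting. Smtn, encoding smoothelin, rose 10.2-fold from 116 ± 28.3 to 1195 ± 134 (limma adjusted p = 0.000149), its log2 fold change of 3.36 becoming 2.44 after removal of the length and GC trend. Tpm2, a tropomyosin gene, rose 5.81-fold, and Actn1, which encodes a non-muscle alpha-actinin, rose 5.72-fold. Cnn3, a calponin gene outside smooth muscle, fell 2.56-fold from 9104 ± 835 to 3575 ± 540 (limma adjusted p = 0.00105), and Myl6, encoding a myosin light chain of smooth and non-muscle cells, fell 2.42-fold. Several of these genes are also expressed in skeletal muscle or in most cells. All 4 tested actin genes outside the 10 markers rose (2, 1 and 1 without mdx 1, 2 and 3), including Acta1 of skeletal muscle (206 and 260 against 2255, 933 and 1234) and the ubiquitous Actb, which rose 1.56-fold, a call lost in 6 of 14 alternatives, among them without wild type 2 or any mdx library. The log2 fold change of Actb was 0.64, and 1.70 after quantile normalization.

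Among genes that regulate the smooth muscle program, 5 of 8 tested rose and 0 fell by limma, also at an unadjusted p under 0.05. Mkl2, encoding a myocardin-related partner of serum response factor, rose 6.13-fold from 318 ± 43.1 to 1956 ± 214 (limma adjusted p = 0.000127). Tead1, whose product binds MCAT elements, rose 3.90-fold, and Mef2c, a transcription factor gene of muscle and other lineages, went from 7 and 4 to 475, 781 and 581. Srf itself gave 1112 and 693 for wild type against 725, 725 and 980 for mdx, a log2 fold change of −0.13 that did not pass (limma adjusted p = 0.781, named after its values were seen). After removal of the length and GC trend Srf was called lower, at −1.51 (limma adjusted p = 0.00971), the 1 fall in this list under that setting. The same removal brought the log2 fold change of Mkl2 from 2.62 to 1.80 and that of Tead1 from 1.97 to 1.28, with both still called. Myocd, the gene of myocardin, was looked for but not found among the genes of the deposited expression table.

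Ligands and receptors of mural cell recruitment numbered 17, of which 10 rose, 3 fell and 4 did not pass, with a median log2 fold change of 1.81. The rises numbered 6, 6 and 5 without mdx 1, 2 and 3, and the falls 1 without mdx 1 or mdx 2. Ednrb, encoding an endothelin receptor, was at 343, 402 and 210 in mdx and listed at 0 in both wild-type libraries. Ednra, encoding the endothelin receptor typical of smooth muscle, fell, with 559 and 1134 against 265, 232 and 254 (limma adjusted p = 0.0134), a call lost in 6 of 14 alternatives, among them without wild type 2 or any mdx library. Tgfbr2, encoding a receptor for transforming growth factor beta, rose 3.50-fold (log2 1.81, and 1.01 after removal of the length and GC trend) while its partner Tgfbr1 fell 2.19-fold. S1pr1, a sphingosine 1-phosphate receptor gene that is high in endothelium, had 73 and 4 against 1118, 1304 and 771, and Tek, an angiopoietin receptor gene, fell 1.66-fold, a call lost in 8 of 14 alternatives, among them without wild type 1 or any mdx library. Pdgfb, the endothelial ligand of Pdgfrb, reached 604, 345 and 372 in mdx from 0 and 19 (limma adjusted p = 0.00292, named after its values were seen). Of 5 tested relatives of Rgs5 and the channel genes, Rgs1 and Rgs3 rose, Rgs1 from 0 in both wild-type libraries to 323, 301 and 191.

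Markers of other non-myogenic cells also differed between the genotypes, and their part in the result was not tested. Of 12 endothelial markers, 11 rose and 1 fell, their sum going from 2916 to 3394 normalized counts in wild type to between 23618 and 31355 in mdx, and Ptprb, Cldn5 and Emcn were listed at 0 in wild type. Tek, the 1 that fell, made up most of the wild-type sums, and the other 11 summed to 171 and 348 in wild type 1 and 2 against 29926, 25319 and 21593 in mdx 1, 2 and 3. Their median log2 fold change was 7.57, or 7.86 with genes at 0 in wild type set to the bound that 3 reads over the group allow. Macrophage markers rose in 8 of 10 cases, with sums of 416 to 675 against 10229 to 15199 and Mrc1, Itgam, C1qa and C1qb at 0 in wild type (median 6.08, or 6.42 with bounds). Fibro-adipogenic progenitor markers rose in 9 of 10 cases, with sums of 22720 to 34946 against 94722 to 167418 and Dpp4 at 0 in wild type (median 4.48, or 4.61 with bounds). Of these, 4, 6 and 4 were called without mdx 1, 2 and 3. Schwann cell markers rose in 6 of 8 cases and 1 fell (Scn7a), and their sums overlapped (1645 to 2779 against 1641 to 2218). Scn7a made up most of the wild-type sums, at 1289 and 2300 against 602, 681 and 785 in mdx. Its call was lost in 4 of 14 alternatives. The 6 genes that rose were higher in every mdx library than in wild type. The rises were 4 without wild type 1 or mdx 1 and 2 without mdx 2 or mdx 3. Satellite cell markers had 3 rises (Cdh15, Itga7 and Des) and 6 falls (Sdc4, Cd34, Calcr, Myf5, Vcam1 and Chrdl2) of 10. Their sums were 75543 to 88814 in wild type and 42729 to 56896 in mdx. The log2 fold changes of Sdc4, Cd34 and Calcr were −3.32, −1.92 and −1.93, each called in all 14 alternatives. Those of Cdh15, Itga7 and Des were 0.97, 0.94 and 0.69, called in 9, 11 and 7. After removal of the length and GC trend none of the 3 rises was called, with log2 fold changes of 0.11, 0.13 and 0.23 (limma adjusted p = 0.748, 0.605 and 0.346), while 6 genes were still called lower. The rises numbered 1 without mdx 1 or mdx 3 and the falls 3 without mdx 1. Of 10 myofiber genes, 3 rose (Ttn, Neb and Acta1), 0 fell by limma (0 also at an unadjusted p under 0.05) and 7 did not pass. Their sums were 4082 to 5317 in wild type against 30249 to 72173 in mdx. Ttn made up most of the mdx sums, at 37164, 64744 and 23685 against 2475 and 2100 in wild type. Among the 7, Ckm, Myh1, Tnnt3 and Actn3 overlapped between genotypes, Myh4 and Tnni2 were higher in every mdx library and Myh2 was lower. For the 10 pericyte and smooth muscle markers the sums were 3395 to 4320 in wild type and 10408 to 11826 in mdx, and 0 of them were at 0 in both wild-type libraries.

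**Figure D4:**
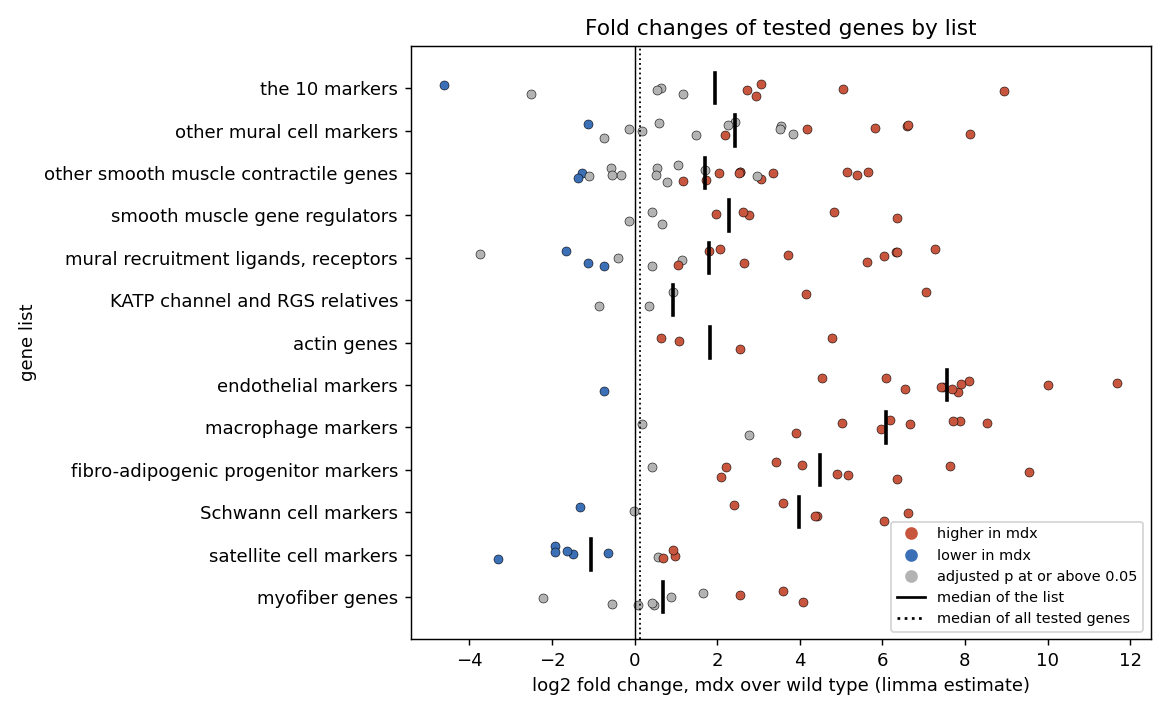
Each point is the limma log2 fold change, mdx over wild type (horizontal axis), of a tested gene in a list (vertical axis), red for called higher, blue for called lower and grey for not passing. List medians (black bars) are 1.94 for the 10 markers and 7.57 for endothelial markers, and the dotted line is the all-gene median of 0.13.

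Over the 5 libraries, the genes with the profiles most like that of Myh11, by Euclidean distance between centred log2 values, were Nrp2 (distance 0.37), Ccdc88c (0.74) and Laptm5 (0.94). Nrp2 encodes a neuropilin co-receptor and Laptm5 a lysosomal membrane protein of blood cells. Nrp2 counted 1600, 2401 and 1520 in mdx, against 3 and 0 for wild type. The profiles most like that of Tagln were Rmrp (distance 0.77), Snord111 (0.82) and mt-Ta (0.88), which are small non-coding RNA genes. Rmrp, the RNA of an endoribonuclease complex, had 64879 and 88433 against 5532, 919 and 3329. Its mdx libraries had the same order as for Tagln, which the choice by nearest profile favours.

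**Figure D5:**
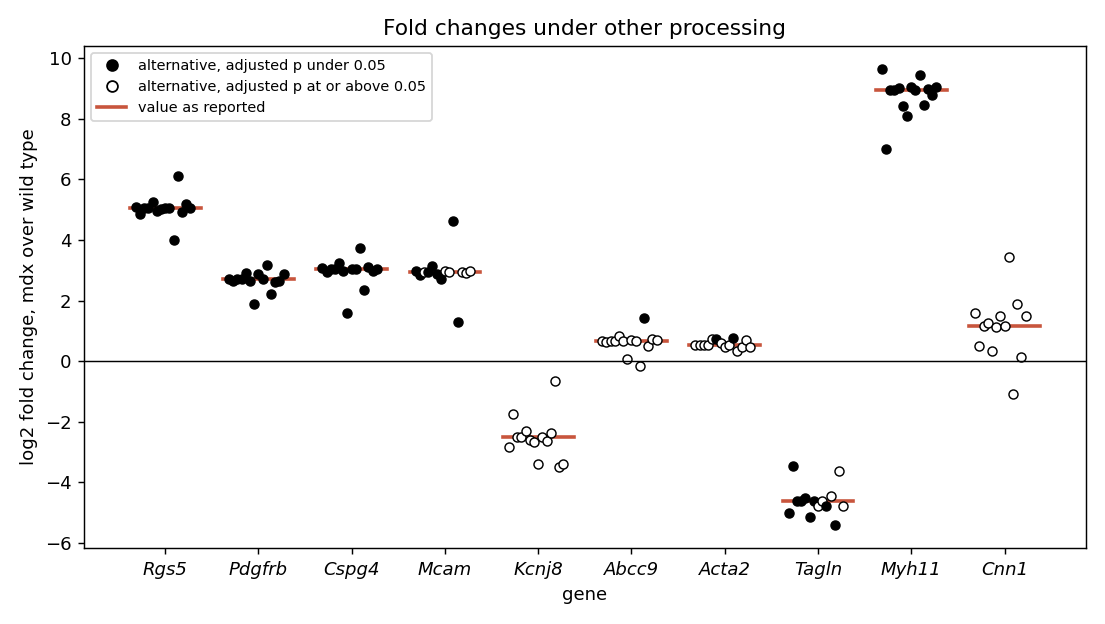
For each marker gene (horizontal axis), circles give the log2 fold change, mdx over wild type (vertical axis), under each alternative processing or with 1 library left out, filled where the limma adjusted p was under 0.05, and the red line gives the value as reported. Rgs5, Pdgfrb, Cspg4 and Myh11 are filled throughout, Mcam and Tagln are mixed, and Abcc9 and Cnn1 have points on both sides of 0.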

How the data were processed

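Total RNA from sorted cells was sequenced in 2 wild-type and 3 mdx libraries made with a stranded low-input kit, per the labels' protocols. STAR 2.6.1d, featureCounts 1.6.3, DESeq2 1.18.1 and mm10 are named in the submitters' processing notes. The deposited values are whole numbers but not raw counts. The unit is treated as a score, normalized counts that the authors rounded, from the values themselves: mdx 1 skips 6 of the whole numbers from 1 to 30. Read numbers were estimated from that spacing, and raw counts could not be restored.

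Here values were taken as log2(normalized count + 2), genes with at least 10 in at least 2 libraries were modelled on genotype alone with limma 3.58.1 (R 4.3.3), and two-sided p-values were adjusted over 18199 genes (Benjamini-Hochberg, called under 0.05). The added 2 generally shrinks the changes of low genes on that scale. Where 1 library is near 0, the fold can still exceed the ratio of means. Kcnj8, with means of 148 in wild type and 62.3 in mdx, had a fold of 5.68. The steps were tested on simulated data. Lengths and GC content are those of the longest coding transcript (otherwise the longest) in GENCODE M21. The markers and the 12 other lists were chosen with earlier results of these data known. Named by rule are the 10 markers and, per list, up to 3 called genes of smallest p in each direction, with 3 genes of nearest profile for Myh11 and for Tagln. Other genes named, such as Pax7, Kcnj11, Abcc8 and the cell type markers at 0, were chosen after their values were seen. 2 list genes were found under older symbols. Alternatives were another pseudocount, filter, scaling or variance model, length and GC correction, a replicate block and leaving out each library.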

Additional observations from a re-analysis of the deposited data

How the results depend on the processing

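The count of markers called higher stayed between 4 and 6 under all 14 alternatives, and Rgs5, Pdgfrb, Cspg4 and Myh11 were called in each. The 1 marker called lower, Tagln, was not called by limma with the replicate block (0 lower, 1 at an unadjusted p under 0.05) or without the variance trend and robust fitting together (0, again 1 unadjusted), and the range was 0 to 1 with 1 library left out. The count of all genes called was 4527, 2023 with the replicate block, 3005 without the variance trend and robust fitting, and 2562 to 5161 with 1 library left out, and the cause was not tested. Log2 fold changes with 1 library left out ran from −0.15 to 1.44 for Abcc9 and from −1.09 to 3.43 for Cnn1. With the replicate block Mcam was not called (limma adjusted p = 0.0586). Deviations from group means correlated at −0.014 and −0.017 across genes for libraries sharing number 1 or 2. With 2 wild-type libraries these deviations mirror each other, so the values cannot decide whether replicate numbers pair the libraries. With 1 wild-type library left, its spread is assumed to equal that of mdx. Adjusted p-values of such fits can be extremely small, so their calls are not comparable with those of the other fits. Cnn1 was not tested under the filter at 50.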
